A study of Rattus norvegicus with 12 samples.

Results

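Integrins and laminins are the receptors and the ligands through which a smooth muscle cell holds on to its basement membrane. Their genes were taken from the count table by symbol: every symbol that starts with Itga or Itgb, apart from the Itgb1bp and Itgbl genes, and every symbol made of Lama, Lamb or Lamc and a number. The rule gave 38 of 33294 genes, of which 11 encode laminin chains, 18 integrin alpha subunits and 8 integrin beta subunits. The remaining gene, Itgb3bp, carries the name of an integrin but encodes centromere protein R, a protein of the kinetochore, and it is described apart. At least 1 group had a mean of 100 scaled counts or more for 29 of the 38 genes, and the other 9 are given by their ranges. The rule reads symbols only.

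The 12 poly(A) libraries came from PAC1, a line of rat pulmonary artery smooth muscle cells, in 4 groups of 3 libraries. D1 was the more differentiated PAC1-D culture, split once a week at a dilution of 1:10, with control siRNA. P was the more proliferative PAC1-P culture, split at 1:20 and more often, also with control siRNA. RBPMS KD1 and MBNL KD were PAC1-D cells given siRNA against Rbpms, or against Mbnl1 and Mbnl2 together (the titles of the MBNL libraries name only MBNL1). Per the labels all wells had 200000 cells, 90 pmol siRNA, a repeat of the siRNA after 24 h and harvest 48 h later, while the study's methods give a longer schedule. RBPMS is a splicing regulator of differentiated smooth muscle, and the MBNL proteins are muscleblind splicing regulators. All groups are cultures of 1 line, and the D and P states are 2 ways of passaging it rather than tissue. The labels do not say that the libraries of a group were separate cultures, and the methods speak of independent biological replicates only in general, so the p-values below measure the spread between these libraries.

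As background, each integrin is a pair of an alpha and a beta subunit in the plasma membrane. The alpha subunit sets most of the ligand choice: alpha 3, alpha 6 and alpha 7 bind laminins, alpha 1, alpha 2, alpha 10 and alpha 11 bind collagens, and alpha 5, alpha 8, alpha v and alpha IIb bind ligands with the Arg-Gly-Asp (RGD) motif such as fibronectin and vitronectin. Most of these alpha subunits pair with beta 1, alpha v also with beta 3, beta 5, beta 6 and beta 8, and alpha 6 also with beta 4. Each laminin is a trimer of an alpha, a beta and a gamma chain, secreted into the basement membrane. Trimers with alpha 4 or alpha 5, beta 1 or beta 2 and gamma 1 are typical of vessel walls, alpha 2 of muscle, and alpha 3 and beta 3 of epithelia.

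Total counts per library lay between 80842635 and 90771289, the lowest in MBNL KD replicate 3. That library also stood furthest from the replicates of its group (chi-square per degree of freedom of 12.8 with each over genes, against 3.68 to 7.70 for all other pairs), and results that change without it are named. Rbpms was at 24.7% to 25.5% of its D1 mean in RBPMS KD1 and at 6.24% to 6.38% in P, and in MBNL KD Mbnl1 was at 23.6% to 24.1% and Mbnl2 at 29.1% to 30.1%. Of 8 smooth muscle markers 8 were called lower in P by edgeR (adjusted p under 0.05 and a log2 fold change below -1), 4 in RBPMS KD1 and 0 in MBNL KD. By the adjusted p alone 8 of 8 were lower in RBPMS KD1 (log2 median -1.04), and in MBNL KD 6 were lower and 2 higher (log2 median -0.41; all 8 also by the unadjusted p). Summed counts of 6 endothelial markers were 65 to 71 in D1, 160 to 165 in RBPMS KD1, 76 to 129 in MBNL KD and 517 to 639 in P, with Cdh5 at 0 in all libraries except those of P and Kdr at 4 counts or fewer throughout. Summed counts of 6 epithelial markers were 1 to 6 in D1, 24 to 28 in P, 1 to 4 in RBPMS KD1 and 4 to 8 in MBNL KD. Summed counts of 8 leukocyte markers were 3805 to 3999, 3108 to 3285, 3573 to 3918 and 3083 to 3619 in the same order, nearly all of them from Cd48. The other 7 summed to 46 to 61, 63 to 87, 59 to 74 and 92 to 114, with Ptprc at 4 counts or fewer, and platelet markers to 9 to 35 in all libraries, with Pf4, Ppbp and Gp1bb at 0. Skeletal muscle markers summed to 286 to 440, 119 to 132, 140 to 186 and 730 to 1038.

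Levels are given below as scaled counts, meaning the count of a gene in a library divided by the library's effective size (TMM, a scaling that sets aside genes with extreme ratios) relative to the 12 libraries. No transcript lengths were used, so a level is compared between groups for the same gene and never between genes. A gene is called higher or lower where edgeR's quasi-likelihood test gave an adjusted p under 0.05, over all genes tested, and the log2 fold change was above 1 or below -1. P, RBPMS KD1 and MBNL KD were each compared with the same D1 libraries, so these comparisons are not independent of one another, and MBNL KD was also compared directly with RBPMS KD1. Where levels are listed, they are those of replicates 1, 2 and 3, and a value with its SE in parentheses after them is the log2 fold change, with the adjusted p of the same test.

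Promoters of 29 of the 38 genes were matched by symbol in RefSeq (GRCr8), and the 250 bases before the start of each were searched on both strands. The AP-1 letters TGANTCA, the site of Fos and Jun proteins, were found in 2 of the 29 promoters, Itgax and Lama3, and in 6.34% of 33469 promoters. The CArG box, the site of serum response factor in many contractile genes (CC, then only A or T, then GG), was found in Lama2 and Itgb6, and in 1.50% of all promoters. GGAATG, a core of TEAD sites, was in 5 of the 29 and in 12.1% of all, GGGCGG, a GC box, in 14 and in 30.5%, and TATAAA in 2 and in 12.9%. A CArG box can hold the letters TATAAA, and neither Lama2 nor Itgb6 had a TATAAA match. The promoters below are shown because Lama3 was called higher in each comparison with D1, and because Lama2 and Itgb6, which were called in opposite directions in P, held the CArG boxes. Capitals mark the matches, which in Lama3 begin 240, 92 and 36 bases before the start, in Lama2 115 and in Itgb6 95. Lama3 lies at chr18:3952517-3952766 (plus strand), Lama2 at chr1:19491896-19492145 (plus strand) and Itgb6 at chr3:65530334-65530583 (minus strand). A match of letters is a description and no binding was measured.
Lama3: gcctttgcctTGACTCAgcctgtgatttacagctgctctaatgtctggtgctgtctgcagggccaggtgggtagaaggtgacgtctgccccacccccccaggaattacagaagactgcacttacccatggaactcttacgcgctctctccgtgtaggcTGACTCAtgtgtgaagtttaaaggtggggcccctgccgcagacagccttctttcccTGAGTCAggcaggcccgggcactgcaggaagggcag
Lama2: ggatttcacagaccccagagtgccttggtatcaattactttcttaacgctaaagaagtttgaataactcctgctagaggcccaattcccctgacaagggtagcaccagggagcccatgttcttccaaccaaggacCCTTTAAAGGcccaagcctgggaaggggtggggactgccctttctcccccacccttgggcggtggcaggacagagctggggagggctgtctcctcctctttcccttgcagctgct
Itgb6: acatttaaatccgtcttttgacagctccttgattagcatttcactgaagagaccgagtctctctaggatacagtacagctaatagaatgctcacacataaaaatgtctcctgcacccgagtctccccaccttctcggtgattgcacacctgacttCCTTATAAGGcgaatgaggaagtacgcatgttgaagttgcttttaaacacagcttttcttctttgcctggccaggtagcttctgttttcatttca

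The comparison of P with D1 asked how the D and P states of the line differ, and integrin and laminin genes differed in both directions. The laminin chains of epithelia (Lama3, Lamb3) and of muscle (Lama2) were higher in P, while the chains common in vessel walls (Lama4, Lamb1, Lamb2) were lower. Itga9 and Itga6 were higher in P by 39.3-fold and 6.72-fold, and Itga8, Itga1 and Itga10 were lower by 9.71-fold, 6.21-fold and 5.09-fold. Of the 38 genes 30 were tested. Of these 8 were called higher, against 16.4% of all 16814 genes tested, and 10 lower, against 11.2%, so that 18 of 30 were called where 27.6% of all genes were. The adjusted p alone was under 0.05 for 28 of 30, against 77.9% of all genes. The median log2 fold change of the 30 was -0.30 (0.02 over all genes) and the median of its absolute value 1.15 (0.46 over all genes). In all 18 called genes the 3 libraries of P did not overlap those of D1. The share of all genes without overlap was not counted, here or in the other comparisons. Such counts therefore add no support to the calls. In such bulk libraries fewer cells with a transcript and less of it per cell cannot be told apart. With quantile normalization 45.2% of all called genes were higher in place of 59.4%, and 8 members were called higher and 10 lower, with Itga11 called and Lamb2 no longer called.

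Lama3, a laminin alpha chain of epithelia, had 402, 348 and 371 scaled counts in D1 and 8915, 9170.1 and 8692 in P. The log2 fold change was 4.57 ± 0.046 (SE, adjusted p = 1.67e-38), a level 23.8-fold higher. Its partner Lamb3 had 112, 83.5 and 86.6 in D1 and 1675, 1793 and 1782 in P, a log2 fold change of 4.21 ± 0.087 (SE, adjusted p = 1.4e-29). The epithelial markers Epcam and Cdh1, at 0 in D1 and at 6 to 8 and 8 to 12 counts in P, moved with Lama3 and Lamb3. Krt5, Krt14, Krt19 and Cldn7 stayed at 6 counts or fewer in both groups. None of these 6 markers had enough counts to be tested. Endothelial markers also moved with the differences between P and D1: they summed to 517 to 639 counts in P and 65 to 71 in D1, and all 3 that were tested, Cdh5, Tek and Vwf, were called higher. The part of either set of markers in these differences was not tested.

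Lama2, the laminin alpha chain of muscle, was close to absent from D1, with 0, 0 and 1.02 scaled counts, and had 1207, 1167 and 1203 in P. In raw counts this was 1 count over the D1 libraries against 3779 over those of P, a ratio of 3496 with a 95% interval of 627 to 138125. Lama1, the chain of early embryonic basement membranes, had 0, 2.06 and 0 in D1 and 30.2, 68.2 and 56.9 in P, or 2 counts against 164, a ratio of 75.9 (95% interval 20.7 to 632). Such intervals cover counting error only. Both genes were called higher (adjusted p = 1.67e-30 for Lama2 and 6.14e-10 for Lama1), and Lama1 remained a gene of few counts in P.

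Lama4, the alpha chain of endothelial and smooth muscle basement membranes, had 8534, 7943 and 8319 in D1 and 2055, 1918 and 1949 in P. It was lower by a log2 fold change of -2.07 ± 0.036 (SE, adjusted p = 8.27e-32). Lama5, the other alpha chain of vessel walls, had 94563, 97888 and 92733 in D1 and 72213, 76683 and 76621 in P. Its log2 fold change of -0.34 passed the adjusted p (8.63e-14) but not the fold, and it turned to 0.025 with quantile normalization and to 0.028 with limma on the authors' normalised values. So among the alpha chains 3 of 5 were called higher, against 16.4% of all genes, 1 was called lower, against 11.2%, and 1 was not called.

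The beta 1 and beta 2 chains fell together in P. Lamb1 had 49071, 49776 and 48532 in D1 and 20821, 21447 and 20618 in P, a log2 fold change of -1.23 ± 0.025 (SE, adjusted p = 4.14e-30). Lamb2, whose chain replaces beta 1 in many mature basement membranes, had 57729.5, 57206 and 56847 in D1 and 25913, 26233 and 25575 in P, a log2 fold change of -1.15 ± 0.024 (SE, adjusted p = 1.04e-29). The call of Lamb2 was lost with quantile normalization (-0.94) and with limma (-0.95). Lamc1, the gamma chain of most laminins, had 97669, 97929 and 95132 in D1 and 56926, 58622 and 57571 in P, and its log2 fold change of -0.75 ± 0.024 (SE, adjusted p = 1.95e-24) stayed under the fold threshold. Lamc3 had at most 8 counts in any library.

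**Figure D1:**
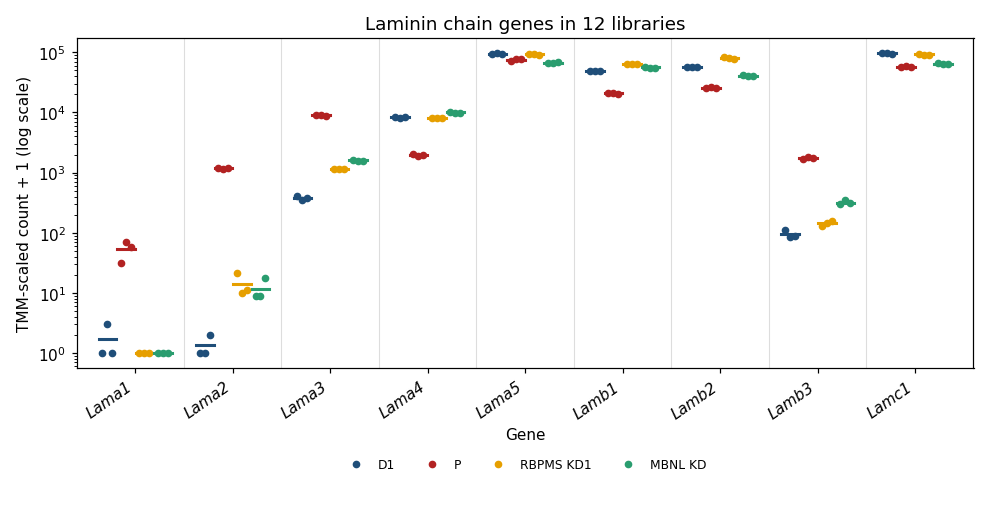
Scaled counts plus 1 (log axis) of 9 laminin chain genes in each of 12 libraries, with a bar at the mean of the 3 libraries of a group. The P libraries of Lama1, Lama2, Lama3 and Lamb3 lie above all D1 libraries and those of Lama4, Lamb1 and Lamb2 below them.

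The laminin receptors did not move as a block. Itga6, which pairs with beta 1 or beta 4 and is the laminin receptor of epithelia and many growing cells, had 1487, 1569.7 and 1599 scaled counts in D1 and 10302, 10674 and 10433 in P, higher by a log2 fold change of 2.75 ± 0.035 (SE, adjusted p = 8.66e-36). Itga7, the laminin receptor of muscle, had 12485, 12644 and 12399.9 in D1 and 6058, 6109 and 6002 in P, lower by a log2 fold change of -1.05 ± 0.027 (SE, adjusted p = 5.52e-27). With limma on the normalised values Itga7 was at -0.99 and no longer called. Itga3 had 8296, 7581 and 8071 in D1 and 14025, 14773 and 14336 in P, and its log2 fold change of 0.84 ± 0.03 (SE, adjusted p = 8.53e-23) did not reach the fold threshold although the libraries did not overlap.

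Of the collagen receptors 2 of 4 were called lower, where 11.2% of all genes were. All 4 were lower by the adjusted p, which 77.9% of all genes passed in either direction. Itga1, the collagen receptor of contractile smooth muscle, had 18424, 18948 and 18395 in D1 and 2898, 3119 and 2999 in P, a log2 fold change of -2.63 ± 0.03 (SE, adjusted p = 6.84e-37). Itga10, known from cartilage, had 244, 278 and 281 in D1 and 50.9, 42.6 and 64.5 in P, a log2 fold change of -2.35 ± 0.17 (SE, adjusted p = 2.29e-14). Itga2, the collagen receptor of platelets and epithelia, lies close to Itga1 in the genome and was not called, with 317, 346 and 407 in D1 and 303, 302 and 299 in P (log2 fold change -0.25 ± 0.10 SE, adjusted p = 0.03). Itga11, a receptor of fibroblasts for fibrillar collagen, had 201, 178 and 191 in D1 and 112, 118 and 101 in P. Its log2 fold change of -0.79 ± 0.15 (SE, adjusted p = 2.21e-05) was not called here but reached -1.25 with quantile normalization and -1.002 with limma, past both thresholds.

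Among the RGD receptors the gene with the largest change was Itga8, which binds nephronectin and fibronectin and is known from vascular smooth muscle. It had 541, 607 and 550.2 in D1 and 57.5, 55.0 and 62.6 in P, a log2 fold change of -3.28 ± 0.12 (SE, adjusted p = 4.51e-22). Itgav, the vitronectin receptor subunit that pairs with most beta subunits, had 46739.5, 47584 and 46459.8 in D1 and 24422, 25197 and 25663 in P. Itga5, the fibronectin receptor, had 19716, 19686 and 19404 in D1 and 14649, 14836 and 14912 in P. The log2 fold changes of -0.91 ± 0.025 (SE, adjusted p = 3.15e-26) for Itgav and -0.41 ± 0.024 (SE, adjusted p = 1.44e-16) for Itga5 stayed under the fold threshold, and in both the libraries of P lay below those of D1. Itga2b, the alpha IIb subunit of platelets, overlapped between the groups, with 70.4, 92.8 and 81.5 in D1 and 103, 70.1 and 89.2 in P (log2 fold change 0.095 ± 0.21 SE, adjusted p = 0.685).

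Itga9, which binds tenascin C, osteopontin and VCAM-1, showed the largest change of any integrin gene. It had 238, 213 and 228 scaled counts in D1 and 8899, 8800.5 and 9130.4 in P, a log2 fold change of 5.30 ± 0.047 (SE, adjusted p = 7.73e-40). Its relative Itga4 had 0 counts in all D1 and P libraries and at most 10 counts anywhere. Of the alpha subunits of leukocytes, Itgad and Itgal had at most 6 counts, Itgam at most 2 and Itgax at most 22. Itgae, the partner of beta 7 in mucosal T cells, had 396, 442 and 426 in D1 and 415, 375 and 412 in P, overlapping ranges with an adjusted p of 0.431 by edgeR. The gene Haspin overlaps Itgae, and since the strand setting of the counting is not given, reads of the pair may be shared. Itga1 with Pelo and Itga7 with Mettl7b are further members that overlap other genes.

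**Figure D2:**
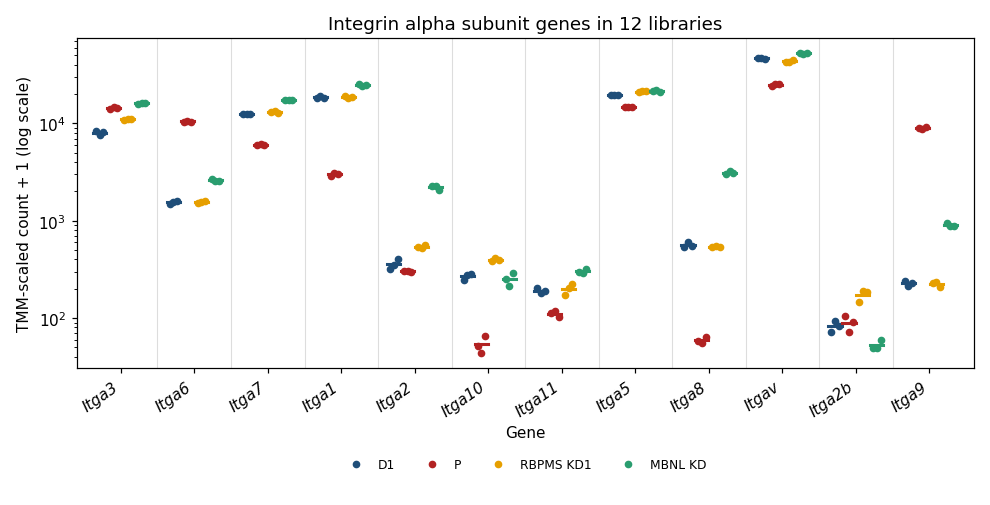
Scaled counts plus 1 (log axis) of 12 integrin alpha subunit genes in each of 12 libraries, with a bar at the mean of the 3 libraries of a group. Itga6 and Itga9 are highest in P, Itga1, Itga7, Itga8 and Itga10 are lowest in P, and Itga2 and Itga8 are highest in MBNL KD.

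The beta subunits had 2 genes called higher and 2 lower in P of the 6 tested, against 16.4% and 11.2% of all genes. Itgb5, which pairs with alpha v to bind vitronectin, had 54894, 54985 and 56156 in D1 and 137517, 134686 and 132399 in P, a log2 fold change of 1.28 ± 0.024 (SE, adjusted p = 5.35e-31). Itgb4, the beta subunit of hemidesmosomes, had 117, 88.6 and 86.6 in D1 and 294, 267 and 263 in P, a log2 fold change of 1.49 ± 0.14 (SE, adjusted p = 3.58e-11) that fell under the threshold with limma (0.86). The 2 lower genes both encode partners of alpha v that activate latent TGF-beta. Itgb8 had 2659, 2848 and 2726 in D1 and 1205, 1223 and 1304 in P, a log2 fold change of -1.15 ± 0.047 (SE, adjusted p = 4.22e-21). Itgb6 had 127, 139 and 107 in D1 and 20.8, 10.4 and 9.49 in P, a log2 fold change of -3.19 ± 0.29 (SE, adjusted p = 5.96e-12). Itgb1, the common partner, hardly differed, with 168654, 171360 and 170353 in D1 and 166227, 165237 and 163828 in P. Its log2 fold change of -0.048 ± 0.022 (SE, adjusted p = 0.0492) turned to 0.38 with quantile normalization and to 0.32 with limma. Itgb3, the beta 3 subunit of the vitronectin receptor, had 382, 392 and 397 in D1 and 454, 469 and 556 in P, a log2 fold change of 0.33 ± 0.089 (SE, adjusted p = 0.00126) that was not called. Itgb2 and Itgb7, the beta subunits of leukocytes, had at most 4 and 11 counts in any library.

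**Figure D3:**
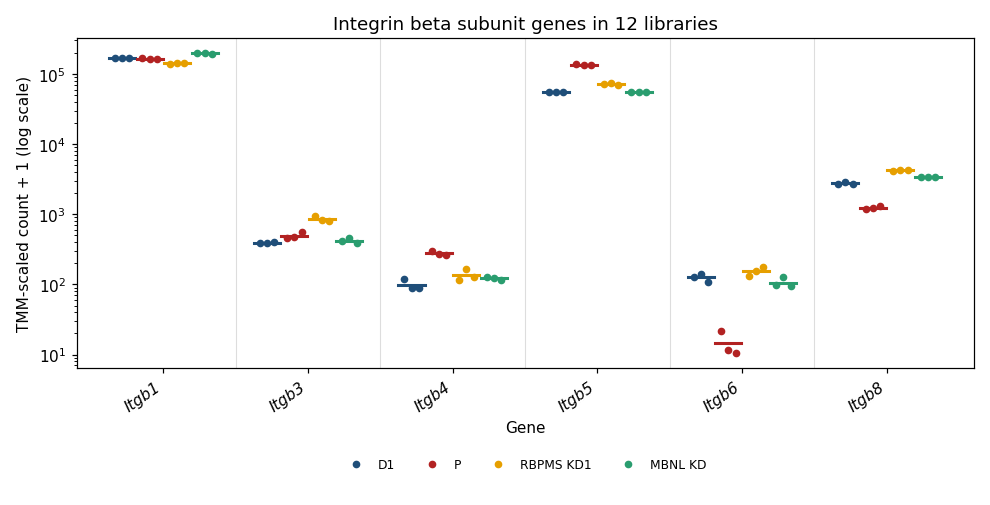
Scaled counts plus 1 (log axis) of 6 integrin beta subunit genes in each of 12 libraries, with a bar at the mean of the 3 libraries of a group. Itgb5 is highest and Itgb6 and Itgb8 are lowest in P, Itgb3 is highest in RBPMS KD1, and the 4 groups of Itgb1 lie close together.

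Knockdown of Rbpms in D cells, which asks how much of the difference between the states follows the loss of this factor alone, moved few of these genes past the fold threshold. Lama3, Itgb3 and Itga2b were higher by 3.07-fold, 2.2-fold and 2.13-fold, and none was called lower. Of 28 genes tested 3 were called higher, against 3.06% of 15904 genes, and 0 lower, against 1.62% (4.68% called in either direction). DESeq2 also called 0 lower and called 4 higher. The adjusted p was under 0.05 for 18 of 28 (14 higher and 4 lower, the same 18 by the unadjusted p), against 59.1% of all genes. The median log2 fold change was 0.10 (0.0043 over all genes) and the median absolute value 0.29 (0.23 over all genes). With quantile normalization 53.8% of all called genes were higher in place of 65.4% and 2 members were called, and with limma on the authors' normalised values 50.2% were higher and 1 member was called, all of them higher.

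Lama3 had 402, 348 and 371 scaled counts in D1 and 1149, 1141 and 1151 in RBPMS KD1, a log2 fold change of 1.62 ± 0.07 (SE, adjusted p = 1.22e-17), against 4.57 in P. Its partner Lamb3 was not called, with 131, 147 and 153 (log2 fold change 0.61 ± 0.17 SE, adjusted p = 0.00283). Lama2 had 20.2, 9.11 and 10.0, or 39 counts against 1 in D1 (ratio 38.4, 95% interval 6.50 to 1555), and it was too low to be tested. Summed epithelial markers were 1 to 4 counts in RBPMS KD1 and 1 to 6 in D1, too few to be tested. Endothelial markers moved with the called genes of this comparison, at 160 to 165 summed counts in RBPMS KD1 and 65 to 71 in D1. Both that were tested were called higher, Tek with a log2 fold change of 1.32 ± 0.29 (SE, adjusted p = 0.000225) and Vwf with 1.22 ± 0.22 (SE, adjusted p = 2.38e-05), and their part was not tested.

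The RGD receptor pair alpha IIb and beta 3 rose together. Itgb3 had 382, 392 and 397 in D1 and 935, 839.8 and 801 in RBPMS KD1, a log2 fold change of 1.14 ± 0.076 (SE, adjusted p = 2.32e-13). Itga2b had 70.4, 92.8 and 81.5 in D1 and 145, 189 and 185 in RBPMS KD1, a log2 fold change of 1.09 ± 0.17 (SE, adjusted p = 2.75e-06). In neither gene did the groups overlap. The 6 platelet markers summed to 23 to 32 counts in RBPMS KD1 and 17 to 35 in D1, most of them from Gp1ba, which had 26.5, 11.3 and 15.3 scaled counts in D1 and 18.1, 20.2 and 26.0 in RBPMS KD1, while Pf4, Ppbp and Gp1bb were at 0. The part of platelet and endothelial markers in these calls was not tested. Both calls sat close to the fold threshold: Itga2b was at 0.99 without D1 replicate 1, 0.98 with quantile normalization and 0.76 with limma, and Itgb3 at 0.99 with limma.

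Several receptors and chains passed the adjusted p with smaller changes. Itgb8 had 4116, 4329 and 4338 in RBPMS KD1 (log2 fold change 0.64 ± 0.038 SE, adjusted p = 1.75e-14), Itga2 534, 521 and 565 (0.60 ± 0.091 SE, adjusted p = 1.66e-06) and Itga10 385, 411 and 392 (0.57 ± 0.096 SE, adjusted p = 1.04e-05). Lamb2 had 82211, 81651 and 77519.6 (0.49 ± 0.026 SE, adjusted p = 8.28e-16) and Lamb1 63322, 63819.9 and 63430.1 (0.37 ± 0.024 SE, adjusted p = 7.16e-14). In these 5 genes the libraries of RBPMS KD1 lay above those of D1, and the libraries of P lay below those of D1. Itga3 had 10912, 11107 and 11129 (0.47 ± 0.03 SE, adjusted p = 9.17e-14) and Itgb5 72103, 73825 and 70085 (0.38 ± 0.025 SE, adjusted p = 1.46e-13). Itgb1, at 139643, 143021 and 141464, lay below D1 (-0.27 ± 0.024 SE, adjusted p = 8.89e-11).

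For several genes that were lower in P the test found no difference here. Itga8 had 533, 552 and 542 in RBPMS KD1 (log2 fold change -0.059 ± 0.076 SE, adjusted p = 0.526), Itga1 18917, 18351 and 18729.5 (0.0076 ± 0.025 SE, adjusted p = 0.822) and Lama4 8112, 8009 and 8003 (-0.038 ± 0.03 SE, adjusted p = 0.282). For these 3 genes the libraries overlapped those of D1. Itga9 and Itga6, which were higher in P, also overlapped with D1, Itga9 with 231, 233 and 209 (-0.012 ± 0.12 SE, adjusted p = 0.938) and Itga6 with 1536, 1560.1 and 1605 (0.016 ± 0.049 SE, adjusted p = 0.812). Itgav, at 42797, 42928 and 44503, and Lama5, at 95281, 92901 and 89810.0, had log2 fold changes of -0.11 ± 0.025 (SE, adjusted p = 0.000299) and -0.035 ± 0.027 (SE, adjusted p = 0.266). Itga5 had 21114, 21376 and 21341 (0.12 ± 0.024 SE, adjusted p = 0.000104), Itga7 13145, 13406 and 12938 (0.075 ± 0.026 SE, adjusted p = 0.0149) and Lamc1 93840.4, 91867 and 91866 (-0.065 ± 0.024 SE, adjusted p = 0.0214), differences that passed the adjusted p and were small. Of the genes of lower level, Itga11 had 172, 201 and 221 (0.064 ± 0.13 SE, adjusted p = 0.703), Itgb4 116, 163 and 125 (0.47 ± 0.18 SE, adjusted p = 0.0281), Itgb6 132, 153 and 177 (0.31 ± 0.16 SE, adjusted p = 0.0989) and Itgae 331, 361 and 326 (-0.31 ± 0.09 SE, adjusted p = 0.00403).

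After knockdown of Mbnl1 and Mbnl2, 7 of these genes were called higher. The collagen receptor Itga2 rose 6.19-fold, the RGD receptor Itga8 5.53-fold and Itga9 3.98-fold. The laminin chains Lama3 and Lamb3 rose 4.28-fold and 3.37-fold, and the laminin receptor Itga3 2.02-fold. Of 28 genes tested 7 were called higher, against 6.10% of 16053 genes, and 0 lower, against 4.14% (10.2% in either direction), and DESeq2 called 9 higher and 0 lower. The adjusted p was under 0.05 for 23 of 28 (19 higher and 4 lower), as was the unadjusted p, against 67.5% of all genes. The median log2 fold change was 0.29 (0.01 over all genes) and the median absolute value 0.48 (0.31 over all genes). In the 7 called genes the libraries of MBNL KD and D1 did not overlap, a count without its share over all genes. With quantile normalization 50.0% of all called genes were higher in place of 59.6%, with limma 49.5%, and under both 7 members were called higher and 0 lower.

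Itga2 had 317, 346 and 407 scaled counts in D1 and 2287, 2274 and 2051 in MBNL KD, a log2 fold change of 2.63 ± 0.071 (SE, adjusted p = 1.4e-23). The P libraries of this gene, at 303, 302 and 299, lay below those of D1. Itga8 had 541, 607 and 550.2 in D1 and 3049, 3242 and 3089.5 in MBNL KD, a log2 fold change of 2.47 ± 0.054 (SE, adjusted p = 7.56e-26), against -3.28 in P. Itga9 had 238, 213 and 228 in D1 and 947, 872 and 884 in MBNL KD, a log2 fold change of 1.99 ± 0.082 (SE, adjusted p = 4.81e-19), against 5.30 in P.

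Lama3 and Lamb3 lay between their levels in D1 and P. Lama3 had 1637, 1586 and 1575 in MBNL KD (log2 fold change 2.10 ± 0.066 SE, adjusted p = 5.91e-22) and Lamb3 298, 346 and 307 (1.75 ± 0.14 SE, adjusted p = 2.8e-12). Itga3, whose product with beta 1 is a receptor for laminins with these chains, had 8296, 7581 and 8071 in D1 and 16016, 16059 and 16310.4 in MBNL KD, a log2 fold change of 1.02 ± 0.026 (SE, adjusted p = 5.67e-24), and without D1 replicate 2 it was at 0.97 and not called. Summed epithelial markers were 4 to 8 counts in MBNL KD and 1 to 6 in D1. Lama2 had 7.96, 7.91 and 16.4, or 31 counts against 1 in D1 (ratio 31.0, 95% interval 5.17 to 1265), too few to be tested, and Lama1 had 0 counts in all libraries of both knockdowns.

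Of the laminin chains common in vessel walls none was called in MBNL KD by edgeR (10.2% of all genes were), though all 5 passed the adjusted p (67.5% of all genes). Lama5 had 65506, 67137 and 68487 in MBNL KD (log2 fold change -0.50 ± 0.025 SE, adjusted p = 4.14e-17), Lamc1 65856, 64587 and 63938 (-0.58 ± 0.023 SE, adjusted p = 2.39e-19) and Lamb2 41489.6, 40869 and 40514 (-0.48 ± 0.024 SE, adjusted p = 5.15e-17), each with libraries below those of D1. Lama4 had 10229.9, 9983 and 9848 (0.28 ± 0.027 SE, adjusted p = 1.85e-10) and Lamb1 56769, 55534 and 55922 (0.19 ± 0.024 SE, adjusted p = 3.34e-08), each above D1. The receptors Itga7, at 17575, 17408 and 17520.2 (0.49 ± 0.023 SE, adjusted p = 1.43e-17), and Itga1, at 25579, 24103 and 24974 (0.42 ± 0.026 SE, adjusted p = 9.88e-15), also lay above D1 without reaching the fold threshold. Skeletal muscle markers, which summed to 730 to 1038 counts in MBNL KD and 286 to 440 in D1, moved with Itga7 and Itga8, and their part was not tested. Of these markers Myh3, embryonic skeletal myosin, gave most counts in both groups and rose (log2 fold change 1.62 ± 0.12 SE, adjusted p = 2.2e-13), and Myod1 had 44 to 64 counts in MBNL KD and 0 in D1. Ckm, muscle creatine kinase, went the other way, from 66 to 103 counts in D1 to 22 to 39 in MBNL KD (-1.53 ± 0.26 SE, adjusted p = 6.36e-06).

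Of the remaining alpha subunits Itga6 had 2708, 2537 and 2580.4 (log2 fold change 0.75 ± 0.046 SE, adjusted p = 5.44e-15), Itga11 298, 288 and 317 (0.66 ± 0.11 SE, adjusted p = 6.74e-06) and Itga2b 47.8, 48.5 and 59.1 (-0.66 ± 0.22 SE, adjusted p = 0.0107). The first 2 lay above D1 and Itga2b below it. Itgav had 53093, 52140.2 and 53096 (0.17 ± 0.024 SE, adjusted p = 3.1e-07), Itga5 21327, 21866 and 21059.7 (0.13 ± 0.025 SE, adjusted p = 3.64e-05), Itga10 253, 214 and 287 (-0.094 ± 0.12 SE, adjusted p = 0.502) and Itgae 486, 511 and 455 (0.20 ± 0.086 SE, adjusted p = 0.0379). None of the 6 beta subunits tested was called, by edgeR or by DESeq2, where edgeR called 10.2% of all genes. The adjusted p was passed by 2 of the 6, as was the unadjusted p, where 67.5% of all genes passed the adjusted p. Those were Itgb1, at 199663, 198276 and 195596 (0.22 ± 0.019 SE, adjusted p = 2.65e-11), and Itgb8, at 3343, 3403 and 3402 (0.30 ± 0.038 SE, adjusted p = 3.03e-08). Itgb3 had 418, 452 and 384, Itgb4 128, 124 and 116, Itgb5 55481, 54993 and 54849.7 and Itgb6 96.5, 127 and 93.1, with log2 fold changes of 0.10, 0.33, -0.0047 and -0.24.

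The knockdowns were then compared directly, since a call in one and not in the other does not show that they differ. Of 28 genes tested 5 were higher in MBNL KD than in RBPMS KD1, against 5.88% of 16111 genes, and 2 lower, against 6.03% (11.9% in either direction). The adjusted p was under 0.05 for 26 of 28, against 69.5% of all genes. The median log2 difference was 0.36 (0.01 over all genes) and the median absolute value 0.53 (0.34 over all genes). Itga8 differed by 2.52 ± 0.053 (SE, adjusted p = 1.52e-26), Itga2 by 2.02 ± 0.061 (SE, adjusted p = 9.52e-23) and Itga9 by 2.001 ± 0.083 (SE, adjusted p = 2.96e-19). Lamb3 differed by 1.14 ± 0.12 (SE, adjusted p = 1.31e-09). The 2 genes lower in MBNL KD were those of the platelet receptor, Itga2b (-1.75 ± 0.18 SE, adjusted p = 7.58e-10) and Itgb3 (-1.04 ± 0.08 SE, adjusted p = 8.96e-13). In all 7 called genes the libraries of the knockdowns did not overlap, again without the share over all genes.

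Lama3, higher in both knockdowns, differed between them by 0.47 ± 0.052 (SE, adjusted p = 2.57e-09), passing the adjusted p but not the fold. Lamb2, at 82211, 81651 and 77519.6 in RBPMS KD1 and 41489.6, 40869 and 40514 in MBNL KD, differed by -0.98 ± 0.026 (SE, adjusted p = 7.04e-24), and without RBPMS KD1 replicate 3 the value was -1.02 and called. Itga6 differed by 0.73 ± 0.046 (SE, adjusted p = 7.39e-15), Itga10 by -0.66 ± 0.11 (SE, adjusted p = 2.4e-06) and Itgb1 by 0.48 ± 0.021 (SE, adjusted p = 6.69e-19), none of them past the fold threshold. Itga5 (0.0048 ± 0.026 SE, adjusted p = 0.881) and Itgb4 (-0.14 ± 0.16 SE, adjusted p = 0.461) did not pass the adjusted p. The call of Itgb3 lay close to the threshold. Itgb3 was at -0.98 without RBPMS KD1 replicate 1, -0.99 without MBNL KD replicate 3 and -0.99 with upper-quartile factors. Lamb3 was at 0.93 with limma.

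**Figure D4:**
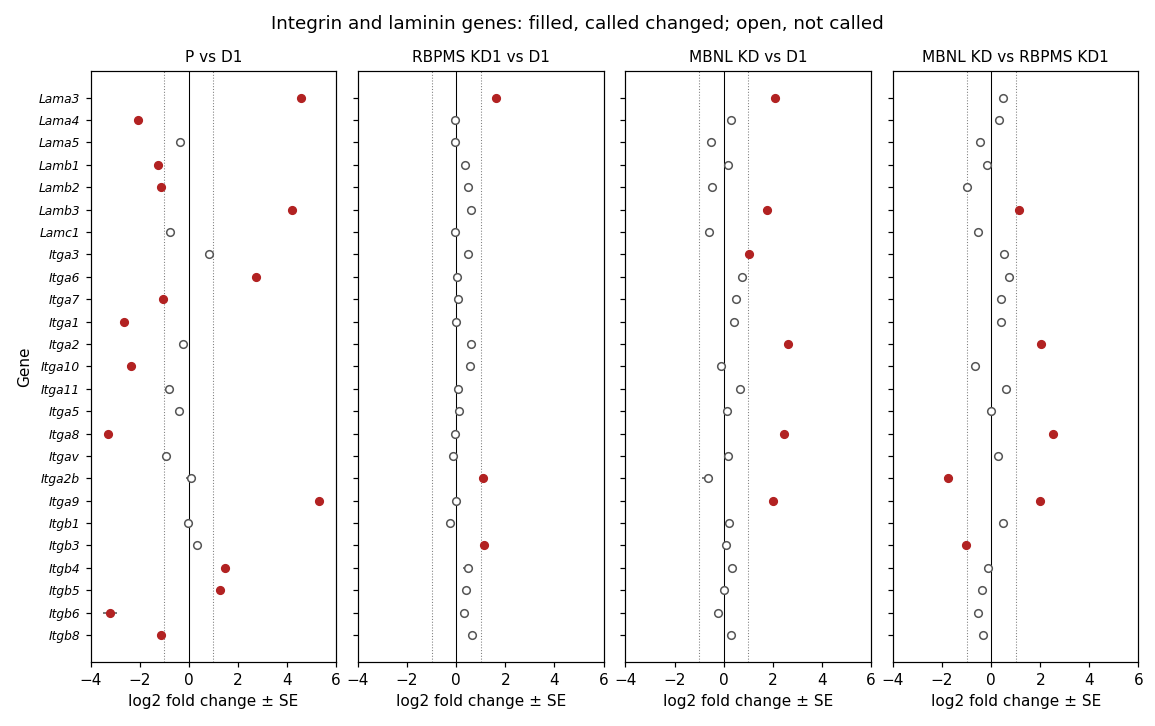
Log2 fold changes with SE (bars, often shorter than the point) of 25 integrin and laminin genes in 4 comparisons, filled where called and open where not; dotted lines mark -1 and 1, and Lama1, Lama2, Itgae and Itgb3bp are left out. P vs D1 has points on both sides, the called genes of both knockdowns against D1 are all higher, and Itga2, Itga8 and Itga9 also differ between MBNL KD and RBPMS KD1.

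Itgb3bp, the kinetochore gene that the symbol rule includes, was called in none of the comparisons by edgeR or DESeq2, with an unadjusted p under 0.05 in 3 of 4. It had 637, 575 and 599 scaled counts in D1, 889, 847 and 882 in P, 561, 517 and 575 in RBPMS KD1 and 920.4, 990.0 and 947 in MBNL KD. The P and MBNL KD libraries lay above those of D1, with log2 fold changes of 0.53 ± 0.068 (SE, adjusted p = 2.04e-08) and 0.66 ± 0.067 (SE, adjusted p = 6.49e-10), and the RBPMS KD1 libraries close to them or below (-0.13 ± 0.075 SE, adjusted p = 0.139).

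The proteins that link integrins to actin and the other ligands of these receptors were described with lists of known genes. Of 26 integrin-proximal adaptors tested, 3 were called higher and 8 lower in P, where 16.4% of all genes tested were called higher and 11.2% lower (list median -0.49, 0.02 over all genes). Parvb, beta-parvin of the complex with integrin-linked kinase, rose from 22.4, 39.2 and 28.5 in D1 to 1269, 1296 and 1297 in P (5.41 ± 0.12 SE, adjusted p = 2.96e-29). Fermt3, the kindlin of blood cells, had 11.2, 21.6 and 8.15 and 218, 204 and 197 (3.90 ± 0.24 SE, adjusted p = 5.8e-16). Tgfb1i1, the smooth muscle paxillin relative Hic-5, fell from 19129, 20256 and 19805 to 2847, 2866 and 2958 (-2.78 ± 0.03 SE, adjusted p = 1.19e-37). In RBPMS KD1 0 of 26 adaptors were called by edgeR (4.68% of all genes), and DESeq2 called 0 in all of the linked lists. The adjusted and the unadjusted p were under 0.05 for 17 of 26, where 59.1% of all genes passed the adjusted p. By the adjusted p 13 of the 17 were lower. In MBNL KD 1 was called higher and 2 lower, against 6.10% and 4.14% of all genes (list median -0.14). The higher gene was Parvb, a gene of few counts here, with 72.6, 69.2 and 41.6 (1.03 ± 0.29 SE, adjusted p = 0.00274). Its call was lost without D1 replicate 1 (0.85), D1 replicate 3 (0.99), MBNL KD replicate 1 (0.89) or MBNL KD replicate 2 (0.93), with quantile normalization (0.81) and with limma (0.45). Those lower were Tns2, a tensin, with 13629.7, 13439 and 13859.9 in D1 and 5739, 5887 and 5888 in MBNL KD (-1.22 ± 0.025 SE, adjusted p = 1.3e-26), and Tln1, the talin that activates integrins, with 96204, 98988 and 97261 and 49235, 47726 and 47522 (-1.02 ± 0.024 SE, adjusted p = 4.42e-25). Tln1 lost its call with quantile normalization (-0.94), upper-quartile factors (-0.94) and limma (-0.92). Between the knockdowns, where 11.9% of all genes were called, Tns2 was lower in MBNL KD (-1.37 ± 0.026 SE, adjusted p = 9.13e-28) and Itgb1bp2, melusin of striated muscle, higher (1.11 ± 0.12 SE, adjusted p = 1.92e-09), with 161, 134 and 147 in RBPMS KD1 and 342, 317 and 296 in MBNL KD. With limma Itgb1bp2 was at 0.92 and not called.

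Of 17 partners of laminin in the basement membrane and at the cell surface, 2 were called higher and 8 lower in P, against 16.4% and 11.2% of all genes (list median -0.75). Bcam, a surface receptor for laminin alpha 5, fell from 8269.8, 9165 and 8651 to 175, 184 and 169 (-5.63 ± 0.054 SE, adjusted p = 3.9e-39). Nid1, the nidogen that binds the gamma 1 chain, fell from 99364, 106016 and 99111 to 11597, 11178 and 11645 (-3.15 ± 0.028 SE, adjusted p = 1.01e-39). In RBPMS KD1 0 of 17 were called by edgeR (4.68% of all genes, list median 0.06). The unadjusted p was under 0.05 for 13 and the adjusted p for 12, where 59.1% of all genes passed the adjusted p. In MBNL KD 2 were higher and 1 lower, against 6.10% and 4.14% of all genes (list median 0.03). Sgcd, delta-sarcoglycan of the dystrophin complex, rose from 65.3, 61.8 and 56.0 to 127, 117 and 151 (1.11 ± 0.19 SE, adjusted p = 6.19e-06), and Sspn, sarcospan, fell from 4038, 4116 and 3906 to 1346, 1134 and 1201 (-1.71 ± 0.048 SE, adjusted p = 3.87e-23). Sgcd was at 0.999 without MBNL KD replicate 3, 0.91 with quantile normalization and 0.67 with limma, and then not called. Between the knockdowns 1 gene of the list was called (11.9% of all genes).

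Of the other integrin ligands 3 were called higher and 8 lower in P of 16 tested, against 16.4% and 11.2% of all genes (list median -0.91). Edil3, an RGD ligand of alpha v, had 0 counts in all D1 libraries and 460.3, 463 and 482 scaled counts in P, at least 458-fold higher against a limit of 3 counts over the group. Npnt, nephronectin, the ligand of alpha 8, rose from 296, 345 and 332 to 1761, 1671 and 1709.6 (2.40 ± 0.067 SE, adjusted p = 8.41e-26), while its receptor gene Itga8 was lower in P. In MBNL KD, where Itga8 was higher, Npnt had 278, 267 and 282 and was not called (-0.23 ± 0.10 SE, adjusted p = 0.0467). Ccn2, a matricellular ligand also known as CTGF, fell from 95452, 102189 and 101278 to 12450.1, 12590.3 and 12444 (adjusted p = 1.34e-39). In RBPMS KD1 0 of 15 ligands were called by edgeR (4.68% of all genes). The adjusted and the unadjusted p were under 0.05 for 14, where 59.1% of all genes passed the adjusted p. By the adjusted p 13 were higher (list median 0.36, 0.0043 over all genes). In MBNL KD 2 of 15 were called, both higher, where 6.10% of all genes were called higher (list median 0.55). Thbs1, thrombospondin, rose from 99274, 109755 and 105297 to 330279, 326183 and 336042 (1.66 ± 0.025 SE, adjusted p = 1.67e-29) and Ccn2 to 208005, 212594 and 210886 (1.08 ± 0.023 SE, adjusted p = 5.5e-26). Between the knockdowns Thbs1 was higher in MBNL KD (1.31 ± 0.02 SE, adjusted p = 1.08e-29) and Tgfb1, which encodes a latent RGD ligand, was lower (-1.21 ± 0.027 SE, adjusted p = 9.35e-26), with 12001, 12529 and 12423 in RBPMS KD1 and 5411, 5279.6 and 5308 in MBNL KD.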

How the data were processed

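The authors' deposited counts are reads per gene symbol without normalization, made by subsampling the reads with seqtk, aligning them with STAR 2.7.11b to mRatBN7.2 and counting with featureCounts on RefSeq. The strand setting and the handling of mates are not given in the sources used here. Even counts outnumbered odd ones 2.35 to 2.69 times, so counting intervals may be too narrow. The authors' deposited normalised values are a signal on a linear scale, noise-corrected with noisyR and quantile normalized, and served only as an alternative.

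The gene families and lists were chosen with earlier results of these data known, although the rule for the members reads symbols only. In R 4.3.3, edgeR 4.0.16 was run for each comparison on its 6 libraries (filterByExpr, TMM, quasi-likelihood F test, no block, Benjamini-Hochberg over all genes tested). The script was tested on simulated data. SEs were derived from the F statistic. Calls needed an adjusted p below 0.05 together with more than 1 unit of log2 fold change. Members with 100 or more scaled counts in a group mean were named with every library, and of each linked list the 3 called genes of largest change in each comparison; Npnt was also described beside Itga8 in MBNL KD after its values were seen. A few genes that enter the counts are not reported here. Some members overlap other genes, so reads may be shared. Replicate numbers did not pair the libraries (correlations of same-numbered deviations -0.050 to 0.084), and with 3 libraries against 3 an exact permutation test cannot go below p = 0.1. Alternatives were DESeq2 1.42.0, limma 3.58.1, other scalings and filters, 1 fit of 12 libraries, a replicate block, counts divided by 2 and leaving out each library.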

Additional observations from a re-analysis of the deposited data

How the results depend on the processing

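Of 34 called differences of integrin and laminin genes with 100 scaled counts or more in a group mean (the Lama1 call in P, of fewer counts, is not among them), 24 stayed called under each alternative run, and none of 543 alternative values turned round; 17 values of the other 10 slipped under the fold threshold. The replicate numbers share only a number, and with the replicate block 18, 3, 7 and 7 members were called in P, RBPMS KD1, MBNL KD and the direct comparison, as many as without it. With limma 1 member was called in RBPMS KD1 in place of 3, and in MBNL KD 5 linked genes were called in place of 8, both with limma and with quantile normalization (Tln1, Sgcd and Parvb slipped under the fold threshold; the cause was not tested). With each library left out in turn, 17 to 18, 2 to 3, 6 to 7 and 6 to 8 members were called in the same order, and 32, 0, 7 to 9 and 5 to 6 linked genes. Of 79 uncalled differences, 34 values of 11 turned round; the cause was not tested. In P, Itga2b was at -0.38 with quantile normalization, -0.27 with limma and -0.037 to 0.23 with 1 library left out, Itgb1 at 0.38 and 0.32, and Lama5 at 0.025 and 0.028. In RBPMS KD1, Itga11 was at -0.067 with quantile normalization and -0.062 with limma, and Itga9 at 0.019 with upper-quartile factors. In MBNL KD, Itgb5 was at 0.072 with upper-quartile factors, 0.098 with quantile normalization, 0.0041 with at least 10 counts in every library and 0.11 with limma. In the direct comparison, Itga5 was at -0.00024 with DESeq2's size factors, -0.00037 with no filter and -0.0022 with DESeq2. With 1 library left out, Itga1 ranged from -0.0020 to 0.020, Itga11 from -0.022 to 0.16, Itga6 from -0.017 to 0.037 and Itga9 from -0.055 to 0.036 in RBPMS KD1, Itga10 from -0.20 to 0.0097 and Itgb5 from -0.019 to 0.0019 in MBNL KD, and Itga5 from -0.023 to 0.0093 and Itgb4 from -0.24 to 0.0047 between the knockdowns. Genes of about 100 scaled counts or fewer had the widest errors, and members under the filter could not be tested.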
